A study of Mus musculus with 14 samples.

Results

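Procollagen leaves a cell after enzymes of the endoplasmic reticulum have folded and hydroxylated it, and other enzymes then trim and cross-link it. The levels of 10 genes for these steps were followed in 3 populations of sorted mouse lung cells: Serpinh1, P4ha1, P4ha2, P4hb, Plod1, Plod2, Plod3, Loxl2, Pcolce and Bmp1. Every array probe annotated with one of these symbols was taken, which gave 20 of 45281 probes, for 9 of the 10 genes. Of the 20 probes 18 were above background (detection p under 0.05) on at least 2 arrays. Loxl2, a lysyl oxidase relative, was not analysed here. Each gene was read through its brightest kept probe, so the 9 genes are 9 of the 12444 tested.

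The cells came from triple transgenic mice that carry Foxd1-Cre, a Rosa26-tdTomato reporter that Cre switches on, and a Coll-GFP transgene. PeriFibro cells carry tdTomato and GFP, Peri cells carry tdTomato without GFP, and Fibro cells carry GFP without tdTomato. Mice received 0.8 U/kg bleomycin, a drug that injures the lung, into the trachea or an equal volume of saline (uninjured), and cells were sorted at day 7. Bleomycin-treated mice gave 3 PeriFibro, 2 Peri and 3 Fibro arrays, and uninjured mice gave 2 PeriFibro, 2 Peri and 2 Fibro arrays. The tdTomato label marks descent from a Foxd1-expressing cell and not Foxd1 expression at the time of the sort, and GFP marks cells in which the collagen transgene is active. The labels give all bleomycin arrays as male and all uninjured arrays as female, so bleomycin and sex cannot be told apart, and they state no age. The study's methods state in general that experiments had biological replicates, but no label ties an array to a mouse, so p-values measure only the spread between these samples, which may be technical.

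Procollagen chains are hydroxylated on prolines and lysines as they enter the endoplasmic reticulum. Proline hydroxylation keeps the triple helix stable at body temperature, lysine hydroxylation makes sites for sugars and cross-links, and a dedicated chaperone escorts the folded helix towards the Golgi. Outside the cell the propeptides are cut off, fibrils form, and lysyl oxidases start the cross-links that stiffen matrix in fibrotic lung.

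Between 39.4% and 44.4% of probes were above background per array. Along the second principal component 3 arrays stood apart (PeriFibro bleomycin replicate 3, Fibro bleomycin replicate 2 and Fibro uninjured replicate 2, at 33.5 to 71.4, with the other 11 at 12.0 or below). Foxd1 was above background on 0 of 14 arrays. The leukocyte antigen Ptprc was detected on 0 of 5 PeriFibro arrays, on all 4 Peri arrays and on every Fibro array (3 bleomycin, 2 uninjured). Of 9 leukocyte markers, 8 were detected on each PeriFibro bleomycin array and 7 on each PeriFibro uninjured array. In such bulk samples fewer cells of a type and less RNA per cell cannot be told apart.

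Promoters are shown for Serpinh1 and P4ha2, which differed between populations by the largest factors beside Bmp1, and for P4ha1, the sister subunit of P4ha2 that stayed nearly level. RefSeq starts on GRCm38.p6 were matched by symbol for 7 of the 10 members, in windows of 250 bases before to 50 bases after the start. Each sequence is the 250 bases before the start, 5′ to 3′ on the strand of the gene. Capitals mark ACGTG, a form of the core of the element that hypoxia-inducible factors bind, or its reverse complement CACGT. Other forms of the core were not searched for. Serpinh1 lies at chr7:99353240-99353489 (minus strand), P4ha1 at chr10:59323046-59323295 (plus strand) and P4ha2 at chr11:54100674-54100923 (plus strand).
Serpinh1: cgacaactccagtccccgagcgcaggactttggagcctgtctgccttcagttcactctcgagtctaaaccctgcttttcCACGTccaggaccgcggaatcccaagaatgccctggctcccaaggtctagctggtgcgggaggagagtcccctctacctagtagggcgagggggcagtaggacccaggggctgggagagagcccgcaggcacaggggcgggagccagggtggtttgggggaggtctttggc
P4ha1: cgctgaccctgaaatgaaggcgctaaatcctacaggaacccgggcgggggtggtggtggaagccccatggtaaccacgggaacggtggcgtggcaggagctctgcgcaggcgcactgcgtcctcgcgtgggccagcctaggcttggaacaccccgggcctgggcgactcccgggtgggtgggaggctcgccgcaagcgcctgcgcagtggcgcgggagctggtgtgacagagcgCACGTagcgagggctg
P4ha2: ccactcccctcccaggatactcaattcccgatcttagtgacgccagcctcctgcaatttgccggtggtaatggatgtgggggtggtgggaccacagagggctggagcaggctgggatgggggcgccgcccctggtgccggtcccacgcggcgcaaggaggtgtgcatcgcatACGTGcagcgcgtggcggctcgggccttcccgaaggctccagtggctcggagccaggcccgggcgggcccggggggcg
The match began 171 bases before the start in Serpinh1, 16 bases before it in P4ha1 and 78 bases before it in P4ha2, which held another match 10 bases after the start. Searched on both strands of the full windows, ACGTG was in 5 of the 7 member promoters (Serpinh1, P4ha1, P4ha2, P4hb and Plod3) and in 19.6% of 32851 promoter windows. The GC box GGGCGG was in 6 of the 7, with Plod3 the exception, and in 35.7% of windows. CCAAT was in P4hb and Plod3 and in 37.4% of windows. A pair of heat shock factor half-sites, GAANNTTC, was in Plod1 and in 7.86% of windows. The endoplasmic reticulum stress element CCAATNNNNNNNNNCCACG, which contains CCAAT, was in 0 of the 7 and in 0.119% of windows. These are matches of letters, and binding was not tested.

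Most of the collagen folding and processing genes were higher in PeriFibro than in Peri cells, with the widest gaps after bleomycin for the chaperone Serpinh1 (8.60-fold), the hydroxylase subunit P4ha2 (5.95-fold) and the proteinase Bmp1 (4.62-fold). A gene was called where limma's Benjamini-Hochberg adjusted p over all 12444 genes was under 0.05 and the fold change was at least 2. After bleomycin 5 of 9 members were called higher in PeriFibro than in Peri cells (Serpinh1, P4ha2, Plod1, Plod2 and Bmp1) and 0 lower. Of all genes 20.9% were called there, 11.2% in the upward direction. In uninjured mice 7 of 9 were called higher in PeriFibro than in Peri cells, with P4hb and Pcolce added to those 5, and 0 lower, where 24.8% of all genes were called and 14.6% upward. The median log2 difference of the 9 members was 1.06 after bleomycin and 1.47 in uninjured mice, beside 0.02 and 0.05 for all genes. P4ha1 and Plod3 passed the test in neither condition. With the authors' deposited normalised values, in which differences of dim probes were smaller, Serpinh1 alone was called after bleomycin (1 of 9), and 3 of 9 in uninjured mice. The shares of all genes above belong to the main fit, and none is given for the deposited values.

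Some members were also lower in Peri than in Fibro cells. After bleomycin P4ha2 was the 1 member called lower in Peri than in Fibro cells, with 7.53% of all genes called and 4.26% lower. In uninjured mice 4 of 9 were called lower in Peri than in Fibro cells (Serpinh1, P4ha2, Pcolce and Bmp1), where 21.7% of all genes were called and 12.8% were lower. The members' median log2 difference was -0.61 after bleomycin and -0.87 in uninjured mice, beside -0.01 and -0.03 for all genes. With the deposited normalised values, for which no share of all genes is given, 0 members were called after bleomycin and 1 in uninjured mice.

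PeriFibro and Fibro cells, which both carry the active collagen reporter, had 1 member called in all. Serpinh1 was called higher in PeriFibro than in Fibro cells after bleomycin, 1 of 9 members against 6.09% of all genes (2.75% higher). In uninjured mice limma called 0 of 9 members between PeriFibro and Fibro cells, with 2 at an unadjusted p under 0.05 (Plod1 and Plod2), where 2.35% of all genes were called. The members' median log2 difference was 0.78 after bleomycin and 0.60 in uninjured mice, beside 0.04 and 0.06 for all genes.

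**Figure D1:**
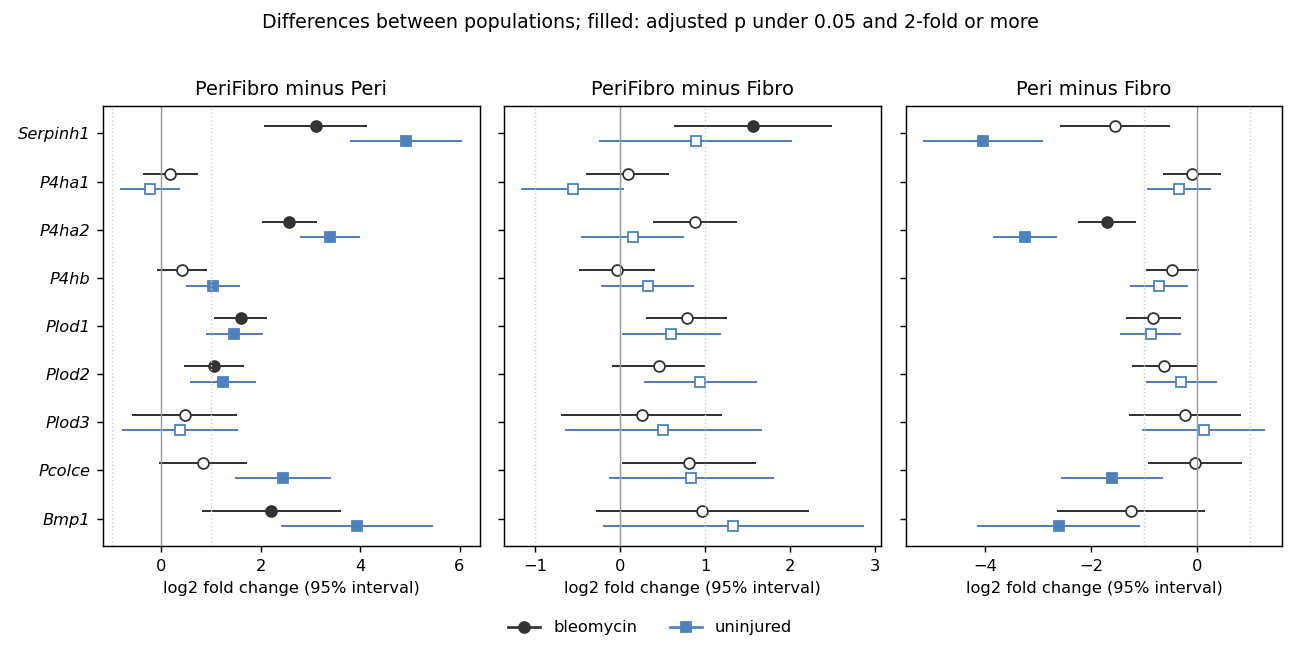
Points give the log2 fold change of each gene between populations with its 95% interval, for bleomycin (circles) and uninjured arrays (squares); filled points passed an adjusted p of 0.05 and a 2-fold change. The gap of Serpinh1 between PeriFibro and Peri cells lies at 3.10 after bleomycin and 4.92 in uninjured mice, while P4ha1 lies at 0.18 and -0.23.

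Serpinh1 encodes HSP47, a chaperone of the endoplasmic reticulum that binds the collagen triple helix. Levels are background-corrected, quantile-normalised log2 intensities, on which probes below background lie near 4 to 5. Serpinh1 read 13.36, 13.14 and 13.16 in PeriFibro, 9.29 and 10.95 in Peri and 11.44, 11.80 and 11.76 in Fibro cells after bleomycin. In uninjured mice it read 13.63 and 13.14 in PeriFibro, 9.17 and 7.76 in Peri and 12.72 and 12.28 in Fibro cells. Each PeriFibro array was above each Fibro array, and each Fibro array above each Peri array, in both conditions. The group order ran from PeriFibro uninjured (mean 13.39) through PeriFibro bleomycin, Fibro uninjured, Fibro bleomycin and Peri bleomycin to Peri uninjured (8.46), and of these neighbours the ranges of both PeriFibro groups overlapped.

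The Serpinh1 difference of PeriFibro over Peri cells was 3.10 ± 0.47 log2 units (SE, 8.60-fold, adjusted p = 0.0006) after bleomycin and 4.92 ± 0.52 (30.3-fold, adjusted p = 3.9e-05) in uninjured mice. Both calls held under all 28 alternatives tried. The sizes depended on single Peri arrays: the log2 difference after bleomycin was 2.27 without Peri bleomycin replicate 1 and 3.95 without replicate 2, and in uninjured mice it was 5.62 without Peri uninjured replicate 1 and 4.20 without replicate 2. Peri over Fibro cells gave -1.55 ± 0.47 (adjusted p = 0.070) after bleomycin and -4.04 ± 0.52 (adjusted p = 0.0003, 16.4-fold lower) in uninjured mice, the second at -4.75 and -3.33 without Peri uninjured replicates 1 and 2.

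The PeriFibro over Fibro difference of Serpinh1 after bleomycin was 1.56 ± 0.42 log2 units (2.94-fold, adjusted p = 0.049), just inside the threshold. It was called under 14 of 28 alternatives (adjusted p 0.016 to 0.22). It failed without any one of the 6 arrays compared (adjusted p 0.0675 to 0.156), without either PeriFibro uninjured array or Fibro uninjured replicate 2 (0.0519 to 0.0657), without the 3 arrays that stand apart (0.0783) and with replicate number as a block (0.0791), at log2 differences of 1.45 to 1.61. In uninjured mice the difference was 0.88 ± 0.52 (95% interval -0.25 to 2.02, adjusted p = 0.42).

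**Figure D2:**
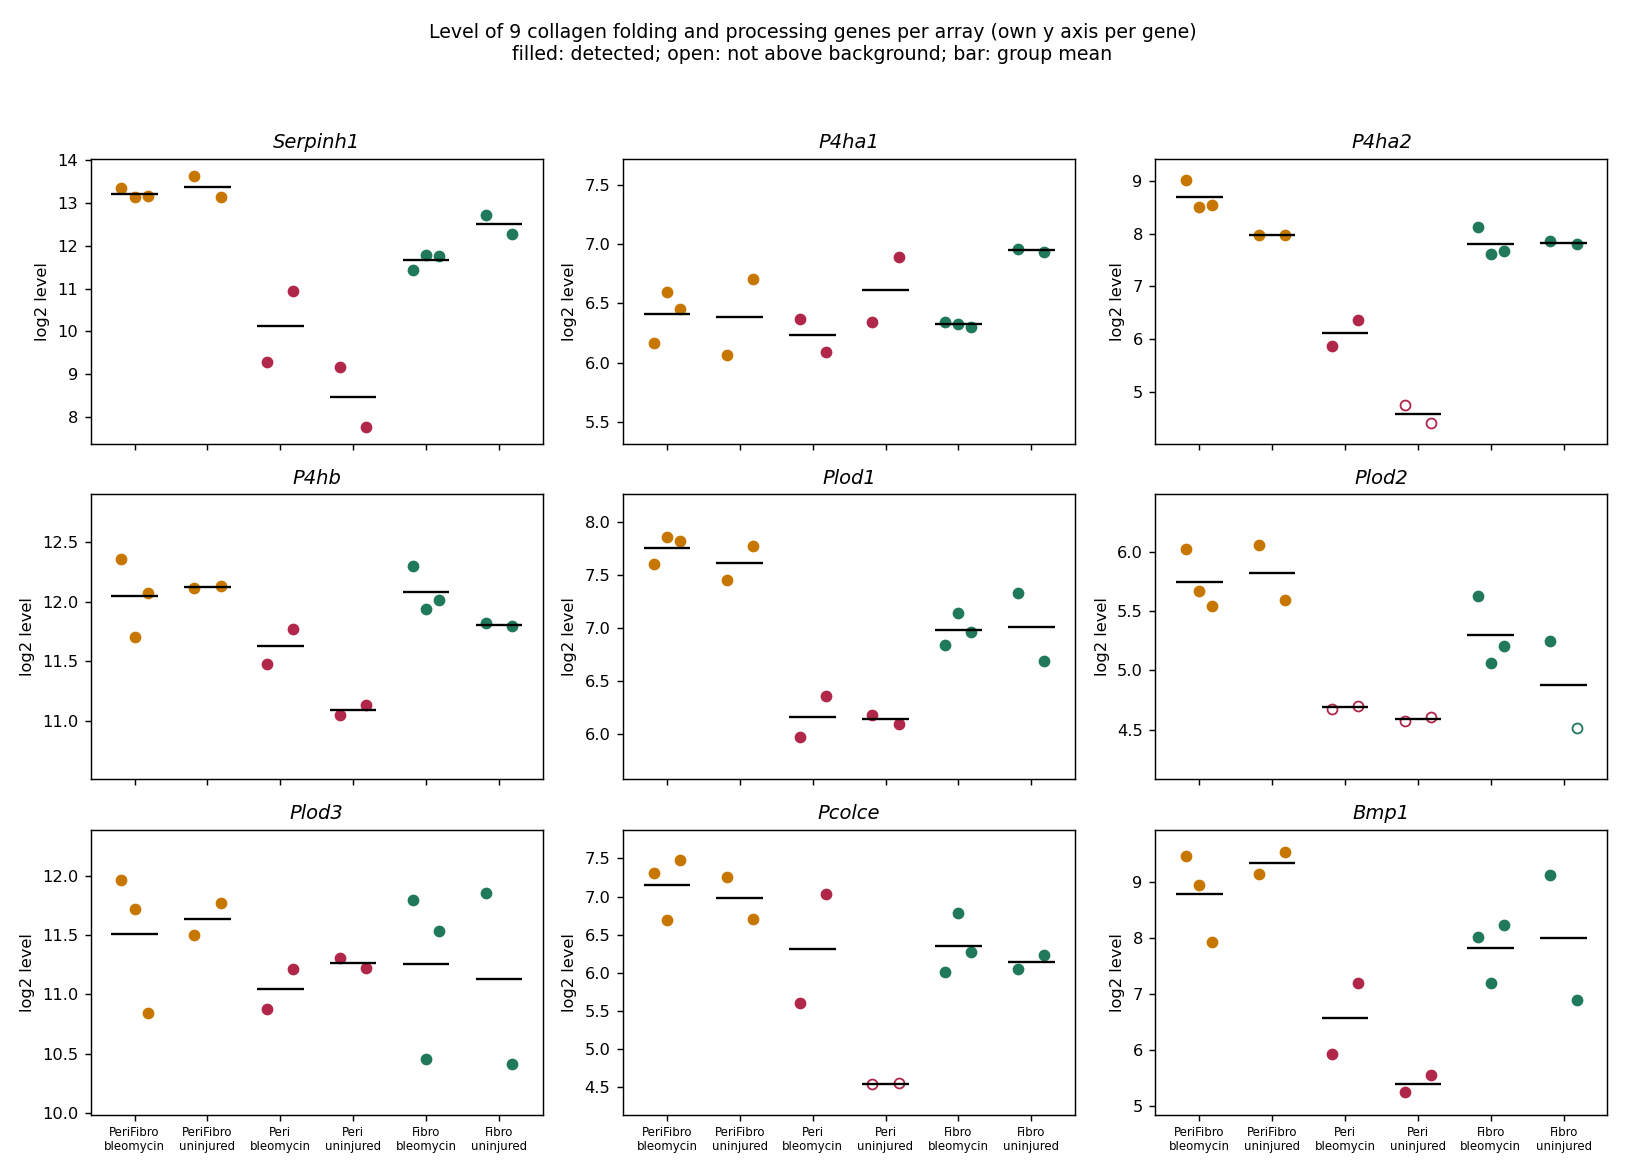
Each point is 1 array (y axis: log2 level of the gene's representing probe, with its own range per gene), open where the probe was not above background, and bars are group means. Serpinh1 spans 7.76 to 13.63 across the 14 arrays and P4ha1 spans 6.07 to 6.96.

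The prolyl 4-hydroxylase is built from catalytic alpha subunits, P4ha1 or P4ha2, and the beta subunit P4hb, which on its own is protein disulfide isomerase. The alpha subunits behaved differently. P4ha2 read 9.01, 8.51 and 8.54 in PeriFibro, 5.87 and 6.35 in Peri and 8.13, 7.60 and 7.68 in Fibro cells after bleomycin. In uninjured mice it read 7.97 and 7.98 in PeriFibro, 4.75 and 4.41 in Peri and 7.86 and 7.80 in Fibro cells. By this probe both Peri uninjured arrays were below background, whereas the other kept P4ha2 probe was above it on Peri uninjured replicate 1 (5.25), and the Peri arrays of each condition lay below all PeriFibro and Fibro arrays.

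P4ha2 was 2.57 ± 0.25 log2 units (SE, 5.95-fold, adjusted p = 6.3e-05) higher in PeriFibro than in Peri cells after bleomycin, and by the same probe at least 9.13-fold higher in uninjured mice (adjusted p = 1.4e-05). A lower bound such as this holds for the probe in the main fit. It sets the detected group against the lowest level detectable on the arrays of the other. Peri cells were below Fibro cells by -1.69 ± 0.25 log2 units (adjusted p = 0.0035) after bleomycin and at least 8.26-fold lower in uninjured mice (adjusted p = 4.1e-05). The first of these was -1.45 (adjusted p = 0.060) without Peri bleomycin replicate 1. PeriFibro over Fibro cells after bleomycin was 0.88 ± 0.23 (1.84-fold, adjusted p = 0.040), short of the 2-fold limit. On the deposited normalised values these P4ha2 differences were smaller than 1 log2 unit (0.92, 0.80, -0.50 and -0.74 for the first 4), with adjusted p of 0.0143 or below.

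P4ha1 read 6.17, 6.60 and 6.45 in PeriFibro, 6.37 and 6.09 in Peri and 6.34, 6.33 and 6.30 in Fibro cells after bleomycin, and 6.07 and 6.70 in PeriFibro, 6.34 and 6.89 in Peri and 6.96 and 6.93 in Fibro cells of uninjured mice. Both Fibro uninjured arrays were above the other 12, and the PeriFibro, Peri and Fibro groups overlapped after bleomycin. No comparison called P4ha1, and the widest difference was -0.62 ± 0.25 in Fibro cells, bleomycin over uninjured (95% interval -1.17 to -0.07, adjusted p = 0.32).

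P4hb spanned 11.05 to 12.36 over the 14 arrays. In uninjured mice it read 12.12 and 12.13 in PeriFibro, 11.05 and 11.13 in Peri and 11.82 and 11.79 in Fibro cells, with no overlap. PeriFibro cells were higher than Peri cells by 1.04 ± 0.25 log2 units (2.05-fold, adjusted p = 0.0084). Without Peri uninjured replicate 1 the difference was 0.99 (adjusted p = 0.0483) and without the 3 arrays that stand apart it was 0.99 (adjusted p = 0.00993), both under the 2-fold limit. After bleomycin the difference was 0.42 ± 0.23 (95% interval -0.08 to 0.92, adjusted p = 0.22), with P4hb at 12.36, 11.70 and 12.08 in PeriFibro and 11.48 and 11.77 in Peri cells.

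Of the lysyl hydroxylases, Plod1 and Plod2 were called between PeriFibro and Peri cells in both conditions and Plod3 in neither. Plod1, which hydroxylates lysines of the helical domain, read 7.60, 7.86 and 7.81 in PeriFibro, 5.97 and 6.35 in Peri and 6.84, 7.14 and 6.96 in Fibro cells after bleomycin. In uninjured mice it read 7.45 and 7.77 in PeriFibro, 6.18 and 6.10 in Peri and 7.33 and 6.69 in Fibro cells. PeriFibro, Fibro and Peri cells did not overlap within a condition, and within each population the bleomycin and uninjured arrays did. PeriFibro cells were above Peri cells by 1.60 ± 0.24 log2 units (SE, 3.02-fold, adjusted p = 0.0006) after bleomycin and 1.47 ± 0.26 (2.77-fold, adjusted p = 0.0013) in uninjured mice. Against Fibro cells the PeriFibro difference was 0.78 ± 0.22 (adjusted p = 0.052) after bleomycin, and Peri cells lay under Fibro cells by -0.87 ± 0.26 (adjusted p = 0.033, 1.83-fold) in uninjured mice.

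Plod2 hydroxylates lysines of the telopeptides, which sets the type of cross-link. Its representing probe was below background on all 4 Peri arrays and on Fibro uninjured replicate 2, and above it on the other 9. A dimmer Plod2 probe was above background on Peri bleomycin replicate 2 (4.74) and Peri uninjured replicate 1 (4.84). After bleomycin the representing probe read 6.02, 5.67 and 5.54 in PeriFibro and 5.63, 5.06 and 5.20 in Fibro cells. In uninjured mice it read 6.05 and 5.59 in PeriFibro and 5.25 and 4.51 in Fibro cells. By the representing probe PeriFibro cells were at least 1.99-fold above Peri cells after bleomycin (adjusted p = 0.016) and at least 2.05-fold in uninjured mice (adjusted p = 0.0095). Across the 28 alternatives the log2 difference was 0.14 to 1.21 after bleomycin and 0.17 to 1.48 in uninjured mice. The first call failed without PeriFibro bleomycin replicate 1 (adjusted p = 0.0589) or without Peri bleomycin replicate 1 (0.103) or 2 (0.0742), and the second without PeriFibro uninjured replicate 1 (0.0995).

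Plod3, which also transfers glucose to hydroxylysine that carries galactose, spanned 10.41 to 11.96. PeriFibro arrays lay above Peri arrays in uninjured mice and populations overlapped otherwise, and 0 comparisons called Plod3 with limma. Its lowest 3 values were not of 1 group. They were 10.85, 10.45 and 10.41, in PeriFibro bleomycin replicate 3, Fibro bleomycin replicate 2 and Fibro uninjured replicate 2, the arrays that stand apart. The other PeriFibro and Fibro arrays read 11.50 to 11.96. Without the 3 arrays, PeriFibro over Peri cells after bleomycin was 0.77 for Plod3 (adjusted p = 0.024), under the 2-fold limit. The other kept probe of Plod3 ran the opposite way in 2 of them, at 6.79 in Fibro bleomycin replicate 2 and 6.66 in Fibro uninjured replicate 2, where the other 12 arrays read 4.72 to 5.79.

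Procollagen trimming rests on Bmp1, the proteinase that removes the C-propeptide, and on Pcolce, which enhances its action. Bmp1 read 9.46, 8.94 and 7.92 in PeriFibro, 5.93 and 7.20 in Peri and 8.01, 7.20 and 8.23 in Fibro cells after bleomycin. In uninjured mice it read 9.13 and 9.53 in PeriFibro, 5.24 and 5.54 in Peri and 9.12 and 6.88 in Fibro cells. PeriFibro cells did not overlap Peri cells in either condition, whereas the Fibro uninjured arrays lay 2.23 log2 units apart and replicate 2 of them is one of the arrays that stand apart.

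The Bmp1 difference of PeriFibro over Peri cells was 2.21 ± 0.64 log2 units (SE, 4.62-fold, adjusted p = 0.026) after bleomycin and 3.94 ± 0.70 (15.3-fold, adjusted p = 0.0012) in uninjured mice. The second was called under all 28 alternatives, at 1.44 to 4.27 log2 units. The first failed without PeriFibro bleomycin replicate 1 (1.86, adjusted p = 0.0851), without replicate 2 (2.12, adjusted p = 0.0679) and without Peri bleomycin replicate 1 (1.58, adjusted p = 0.268), was 2.84 (adjusted p = 0.0296) without Peri bleomycin replicate 2, and was 2.63 (adjusted p = 0.00055) without the 3 arrays that stand apart. Peri cells were below Fibro cells in uninjured mice by -2.61 ± 0.70 for Bmp1 (adjusted p = 0.019). That difference was -1.49 (adjusted p = 0.122) without Fibro uninjured replicate 1 and -3.74 (adjusted p = 0.00318) without Fibro uninjured replicate 2, and it failed without either Peri uninjured array (adjusted p 0.0935 and 0.0757).

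Pcolce read 7.30, 6.69 and 7.48 in PeriFibro, 5.60 and 7.03 in Peri and 6.01, 6.78 and 6.27 in Fibro cells after bleomycin. In uninjured mice it read 7.26 and 6.70 in PeriFibro, 4.54 and 4.55 in Peri, both below background, and 6.05 and 6.24 in Fibro cells. Populations overlapped after bleomycin and not in uninjured mice. In the main fit Pcolce was at least 4.58-fold higher in PeriFibro than in Peri cells of uninjured mice (adjusted p = 0.0014). It was at least 2.57-fold lower in Peri than in Fibro cells (adjusted p = 0.021). Across the 28 alternatives the log2 difference was 0.45 to 2.74 for the first and -1.70 to -0.24 for the second. The second call failed without either Peri uninjured array or Fibro uninjured replicate 2 (adjusted p 0.0821 to 0.097) and without the 3 arrays that stand apart (0.0531). After bleomycin PeriFibro over Peri was 0.84 ± 0.40 for Pcolce (95% interval -0.04 to 1.72, adjusted p = 0.17).

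Few members were called between bleomycin and uninjured arrays, which by the labels also differ in sex. In Peri cells P4ha2 read 5.87 and 6.35 after bleomycin against 4.75 and 4.41 (both below background) in uninjured mice. It was higher by 1.53 ± 0.28 log2 units as fitted (0.23 to 1.78 across 28 alternatives) and at least 2.51-fold (adjusted p = 0.034). P4ha2 was the 1 of 9 members called in Peri cells, where 0.595% of all genes were called and 0.506% were higher. The call held under 13 of 28 alternatives. It failed without either Peri uninjured array (adjusted p 0.122 and 0.397), without Peri bleomycin replicate 2 (0.274), without either PeriFibro uninjured array, PeriFibro bleomycin replicate 2 or Fibro bleomycin replicate 3 (0.056 to 0.0649) and with replicate number as a block (0.0653). The other kept P4ha2 probe read 5.27 and 5.45 after bleomycin and 5.25 and 4.32 in uninjured Peri cells, a difference of 0.58 ± 0.31 (adjusted p = 0.86).

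Markers of other cells were counted in the same comparison of Peri cells. Of 9 macrophage markers 3 were called higher, with a median log2 difference of 1.69, and their summed signal was 15461 to 17348 after bleomycin and 11584 to 15911 in uninjured mice. Fibroblast markers had a median of 1.18 (9 of 10 positive), endothelial markers 0.63 (9 of 10 positive) and epithelial markers 0.80 (8 of 9 positive), beside 0.03 for all genes. Leukocyte markers had a median of 0.01 (5 of 9 positive) and pericyte markers 0.07 (5 of 10 positive). Sums after bleomycin and in uninjured mice were 2330 to 2987 and 1522 to 1780 for fibroblast markers. They were 6669 to 15950 and 4640 to 7369 for endothelial, and 3322 to 9183 and 1676 to 1827 for epithelial markers. Leukocyte markers gave 63859 to 69743 and 63473 to 66740, and pericyte markers 581 to 1235 and 391 to 597. Peri bleomycin replicate 2 had the higher bleomycin value in each of these sums but the leukocyte sum. The part of any of these markers in the P4ha2 difference was not tested.

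Pcolce and Serpinh1 did not pass the test in Peri cells. Pcolce, below background on both Peri uninjured arrays, was at least 2.89-fold higher after bleomycin (adjusted p = 0.15) and was called without Peri bleomycin replicate 1 (adjusted p = 0.0308). Serpinh1 gave 1.65 ± 0.52 (95% interval 0.52 to 2.79, adjusted p = 0.34), with its 2 Peri bleomycin arrays 1.66 log2 units apart. The members' median difference in Peri cells was 0.54, beside 0.03 for all genes, and 3 of 9 had an unadjusted p under 0.05.

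In PeriFibro cells limma called 0 of 9 members between bleomycin and uninjured arrays, with 0.129% of all genes called and 1 member at an unadjusted p under 0.05. That was P4ha2, at 9.01, 8.51 and 8.54 after bleomycin and 7.97 and 7.98 in uninjured mice, without overlap (0.71 ± 0.25, 95% interval 0.15 to 1.26, adjusted p = 0.56). In Fibro cells limma also called 0 of 9, with 1.6% of all genes called and 1 member (P4ha1) at an unadjusted p under 0.05. Serpinh1 gave -0.84 ± 0.47 there (95% interval -1.87 to 0.20, adjusted p = 0.53). Median differences were -0.07 in PeriFibro and -0.03 in Fibro cells, beside -0.03 and -0.03 for all genes.

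The difference between populations in the bleomycin response was itself tested. Limma called 0 of 9 members in each of the 3 contrasts, PeriFibro minus Peri, PeriFibro minus Fibro and Peri minus Fibro, with 2, 0 and 3 members at an unadjusted p under 0.05 and 0%, 0.129% and 0.482% of all genes called. The smallest adjusted p was that of P4ha2, for a response in Peri cells above that in Fibro cells (adjusted p = 0.12), whose size has no exact value because the probe was below background on both Peri uninjured arrays. Serpinh1 followed at 2.49 ± 0.70 log2 units (adjusted p = 0.20), which was 3.32 (adjusted p = 0.044) without Peri bleomycin replicate 1.

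**Figure D3:**
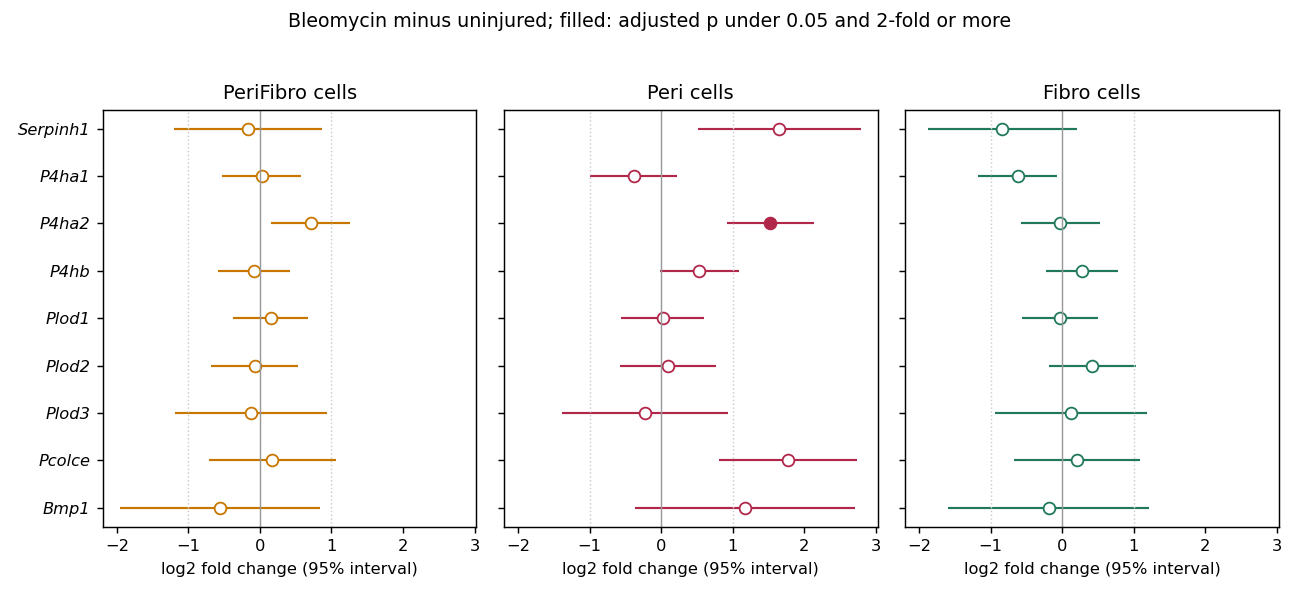
Points give the log2 fold change of bleomycin over uninjured arrays with its 95% interval, 1 panel per population; the filled point passed an adjusted p of 0.05 and a 2-fold change. P4ha2 in Peri cells lies at 1.53 and Serpinh1 at 1.65, and the fitted points of P4ha2 and Pcolce in Peri cells rest on uninjured arrays where their probes were below background.

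Several genes had more than 1 kept probe, which gives a second reading from the same RNA. Fitted singly, both Serpinh1 probes were called for PeriFibro over Peri cells, the second at 2.90 ± 0.48 after bleomycin and 3.61 ± 0.52 log2 units in uninjured mice. For PeriFibro over Fibro cells after bleomycin the second Serpinh1 probe gave 1.23 ± 0.43 (adjusted p = 0.13). Both kept P4ha2 probes were called for PeriFibro over Peri cells in both conditions, the second at 2.03 ± 0.28 and 2.05 ± 0.31. Of 4 kept Bmp1 probes 3 were called in both conditions, at 1.77 to 2.21 after bleomycin and 3.01 to 3.94 in uninjured mice, and the one that was not was detected on 2 of 14 arrays. Of those 3 Bmp1 probes 1 was below background on both Peri uninjured arrays. Another, and the second probes of Serpinh1 and P4ha2, were below background on Peri uninjured replicate 2, so these sizes in uninjured mice are not exact.

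Plod2 probes also differed. The kept Plod2 probe that was detected on 3 of 14 arrays had differences of -0.21 ± 0.19 after bleomycin and -0.37 ± 0.21 in uninjured mice, whereas the second probe gave 0.89 ± 0.25 and 1.23 ± 0.27. This second probe was below background on every Peri array, so its fitted values are not exact sizes. Both P4ha1 probes stayed within 0.23 log2 units of 0. The 2 probes left out, of P4ha2 and Bmp1, were detected on 0 arrays.

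**Figure D4:**
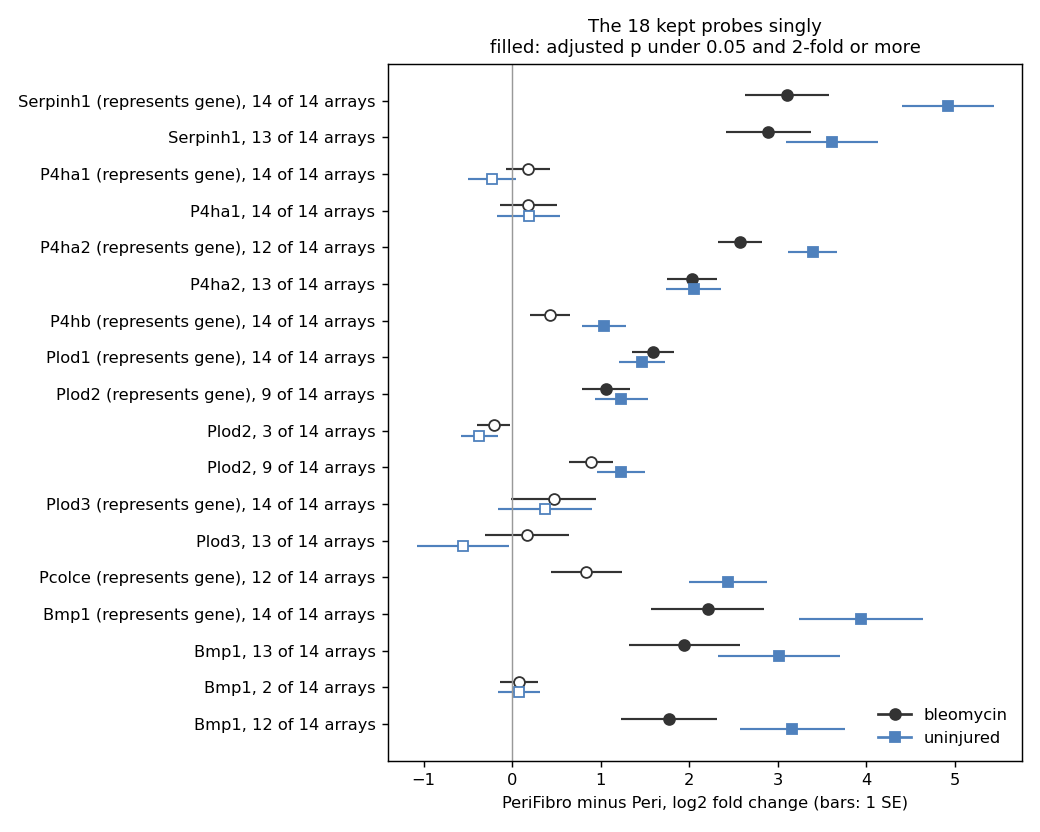
PeriFibro over Peri log2 fold change of each of the 18 kept probes with 1 SE, after bleomycin (circles) and in uninjured mice (squares); each row names the gene and the arrays on which the probe was detected. Probes of Serpinh1, P4ha2 and Bmp1 that were detected on at least 12 arrays are filled in both conditions.

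Markers of other cells moved with these differences. Of 10 endothelial markers 9 were called higher in PeriFibro than in Peri cells in both conditions. Their summed signal was 81756 to 118261 in PeriFibro, 6669 to 15950 in Peri and 35597 to 54212 in Fibro cells after bleomycin, and 113121 to 124741 in PeriFibro, 4640 to 7369 in Peri and 42210 to 82542 in Fibro cells of uninjured mice. Of 9 leukocyte markers tested, 8 after bleomycin and 9 in uninjured mice were called lower in PeriFibro than in Peri cells. Their sum was 15930 to 25059 in PeriFibro, 63859 to 69743 in Peri and 42528 to 54521 in Fibro cells after bleomycin, and 8725 to 14313 in PeriFibro, 63473 to 66740 in Peri and 30810 to 34683 in Fibro cells of uninjured mice. The order of the populations in the endothelial sum is that of Serpinh1, and in the leukocyte sum it is reversed. Their part in the differences of the members was not tested.

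Markers of the cells the sort aimed at were counted too. Of 10 pericyte markers 4 were called higher in PeriFibro than in Peri cells after bleomycin and 7 in uninjured mice, with 0 lower, and their sum was 4486 to 8131 in PeriFibro and 581 to 1235 in Peri cells after bleomycin, and 3538 to 5873 in PeriFibro and 391 to 597 in Peri cells of uninjured mice. Pdgfrb was detected on all 14 arrays. Of 10 fibroblast markers 0 were called higher and 1 lower in PeriFibro than in Peri cells after bleomycin. In uninjured mice 5 were called higher and 1 lower. Col1a1 was below background on both Peri uninjured arrays and on 1 of 2 Fibro uninjured arrays, and above it on the others. After bleomycin its mean was 6.79 in PeriFibro, 6.48 in Peri (5.38 and 7.59) and 6.05 in Fibro cells. Macrophage and epithelial sums were highest in Fibro cells of each condition by group maximum.

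**Figure D5:**
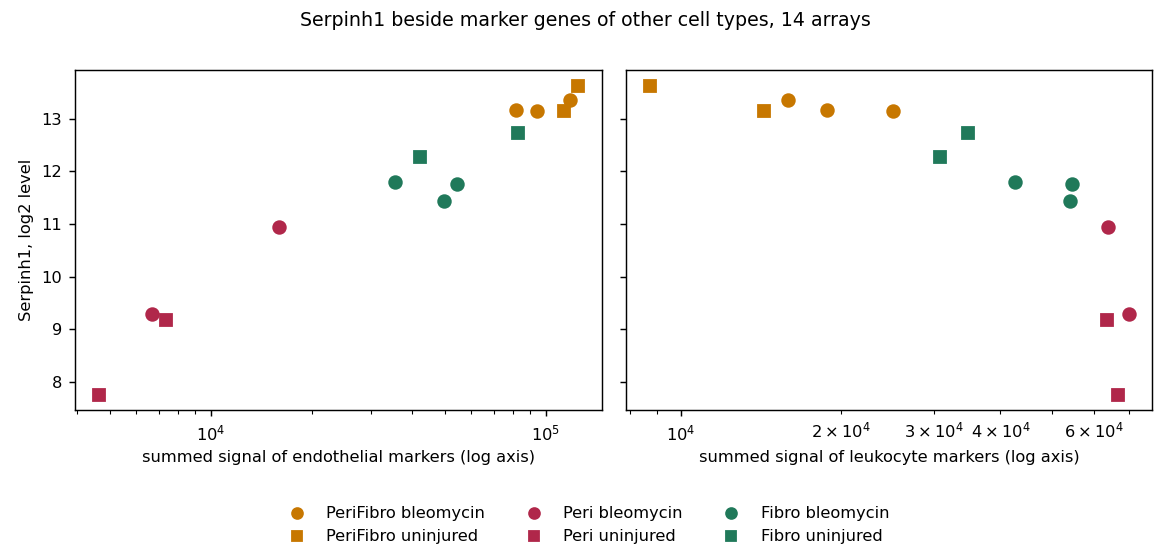
Serpinh1 log2 level of each of the 14 arrays (y axis) against the summed signal of 10 endothelial (left) and 9 leukocyte markers (right), both on log axes; colours are populations, circles bleomycin and squares uninjured arrays. Peri arrays sit at 4640 to 15950 on the endothelial axis and at 63473 to 69743 on the leukocyte axis, where Serpinh1 is lowest.

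Other genes of collagen assembly showed a like split. Of 28 listed genes, for prolyl 3-hydroxylation, glycosylation, propeptide removal, export and cross-linking and for matrix proteins such as Sparc and Emilin1, 21 were tested. PeriFibro cells were higher than Peri cells for 9 and lower for 1 after bleomycin, and higher for 11 and lower for 0 in uninjured mice, with median log2 differences of 0.58 and 1.53. Peri cells were lower than Fibro cells for 3 after bleomycin and 8 in uninjured mice. Sparc binds secreted collagen, and its level in PeriFibro cells exceeded that in Peri cells 8.42-fold after bleomycin and 16.9-fold in uninjured mice (adjusted p = 0.0018 and 0.0004). Colgalt2, which adds galactose to hydroxylysine, was 6.67-fold higher after bleomycin (adjusted p = 6.3e-05) and, by its brightest probe, at least 11.1-fold in uninjured mice (adjusted p = 1.2e-05).

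P3h4, a partner of Plod1 in mouse, was called higher in PeriFibro than in Fibro cells after bleomycin (2.70-fold, adjusted p = 0.0094), and Colgalt2 (2.36-fold, adjusted p = 0.014) and Emilin1, an elastic fibre glycoprotein (2.11-fold, adjusted p = 0.043), were the other 2 called of 21. In uninjured mice limma called 0 of 21 between these populations. In Peri cells Loxl1, which cross-links elastin, was the 1 of 21 called after bleomycin (4.97-fold, adjusted p = 0.049), and 0 of 21 were called in PeriFibro and in Fibro cells.

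The substrates and the general folding machinery were set beside the members. Of 19 collagen chain genes tested, 5 were called higher in PeriFibro than in Peri cells after bleomycin and 12 in uninjured mice, with 0 lower, and median log2 differences were 0.75 and 2.06. Of 16 general folding genes of the endoplasmic reticulum 2 were higher and 1 lower after bleomycin, and 3 higher and 1 lower in uninjured mice, with medians of 0.02 and 0.36. The disulfide isomerase relative Pdia5 was 6.85-fold higher in PeriFibro than in Peri cells after bleomycin and 24.9-fold in uninjured mice (adjusted p = 0.0009 and 4.2e-05), and Ero1b, an oxidase that recharges disulfide isomerases, was 5.54-fold and 9.33-fold lower (adjusted p = 0.0017 and 0.0004).

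Profiles across the 14 arrays were compared by the root mean square difference between centred log2 levels. Serpinh1 was closest to Gask1b (0.31), Maged1 (0.32), Rhoj (0.32), Fkbp9 (0.33) and Esam (0.33), where its own spread about its mean was 1.74. Esam is one of the 10 endothelial markers. The closest gene outside the members was B3gnt3 for P4ha2 (0.26), Arsa for Plod1 (0.18), Igfbp4 for Pcolce (0.30) and Mgll for Bmp1 (0.20). Among the members P4hb and Plod2 were closest (0.33), Serpinh1 and P4ha2 differed by 0.65, the sister subunits P4ha1 and P4ha2 by 1.43, and Serpinh1 and P4ha1 were farthest apart (1.80). Flat profiles are close to each other by this measure whatever their shape.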

How the data were processed

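RNA of sorted Peri, PeriFibro and Fibro cells was measured on 14 Illumina MouseWG-6 v2.0 arrays, read in a single colour. The authors deposited 1 signal intensity per probe and array, not normalised, and no earlier step is given in the sources used here. The detection p-value that the authors deposited with it ranks a probe among the negative controls of its array. The authors also deposited log2 values, which their methods describe as variance-stabilised and quantile-normalised with lumi (version not stated), and these served as an alternative. The study's methods name 2 samples removed for poor hybridisation and do not say which.

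Intensities were background-corrected from the detection p-values, offset by 16, quantile-normalised and log2-transformed with the neqc function (limma 3.58.1, R 4.3.3). A probe was kept where 2 or more arrays had a detection p under 0.05 (24445 of 45281). The kept probe with the highest mean represented each of 12444 genes. Symbols came from the platform annotation, where 34885 probes have 1 symbol, 18 several and 10378 none.

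A single linear model held the 6 groups (limma's lmFit and eBayes, with 8 residual and 3.43 prior degrees of freedom). There were 9 two-sided comparisons and 3 contrasts of the bleomycin response, with Benjamini-Hochberg adjustment over all genes. The small number of arrays limits precision. Named are the 10 members, the genes most like them (5 for Serpinh1, 1 for each other member, not all printed), up to 4 called genes per list, taken by size of change, and genes that check the sort. Members and lists were chosen with earlier results of these data known. Alternatives changed the values (those deposited, no background correction, an offset of 50, median scaling), the probes (no or a stricter detection filter, a gene's mean over probes, each probe by itself), the fit (a block of replicate number, weights per array, a trended and robust variance, the compared groups by themselves), the call (no fold limit), or dropped 1 array at a time. Dropping the 3 arrays that stand apart was added after seeing the data. Slides are not identified, so none served as a block.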

Additional observations from a re-analysis of the deposited data

How the results depend on the processing

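Each of the 19 calls of a member kept its direction under all 28 alternatives. Of the 532 resulting values 450 stayed called and 82 did not. The following are counts of the 9 members called, without the share of all genes called under each alternative. PeriFibro over Peri after bleomycin (5 called) gave 1 with the deposited values, 2 without background correction, 3 with median scaling and 3 to 5 with an array left out. PeriFibro over Peri in uninjured mice (7) gave 3 with the deposited values, 4 without background correction and 6 to 7 with an array left out. PeriFibro over Fibro after bleomycin (1) gave 0 with median scaling, with no detection filter, with all probes singly and without the 3 arrays that stand apart, 2 by adjusted p alone, and 0 to 1 with an array left out. Peri over Fibro after bleomycin (1) gave 0 with the deposited values, without background correction, with median scaling and with the compared groups alone, 2 with the mean of a gene's probes, 3 with array weights, 2 without the 3 arrays, and 0 to 2 with an array left out. Peri over Fibro in uninjured mice (4) gave 1 with the deposited values, 2 without background correction, 2 with median scaling and 2 to 4 with an array left out. Bleomycin over uninjured in Peri cells (1) gave 0 with the deposited values, without background correction, with an offset of 50, with median scaling, with the mean of a gene's probes, with trend and robust variance and with the compared groups alone, and 0 to 2 with an array left out. The Peri minus Fibro response (0) gave 0 to 1 with an array left out. The other 5 counts stayed at 0. The cause was not tested.

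With replicate number as a block, 0 members were called for PeriFibro over Fibro after bleomycin and 0 for bleomycin over uninjured in Peri cells, and no other count moved by over 1.5 times. Of 31 pairs of arrays that share a number 10 had deviations correlated above 0.1 (range -0.44 to 0.69). Where a group holds a single pair of arrays their deviations mirror each other, and many of the 31 pairs cross bleomycin and uninjured mice. These correlations therefore cannot decide whether the numbers pair the samples. An array left out of a pair leaves 1 array, which is assumed to vary like the other groups. Representing probes close to background, those of Plod2, Pcolce and P4ha2 in Peri cells, limit the fold changes to lower bounds.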

Other observations

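Hypoxia-inducible factors are known to induce several prolyl and lysyl hydroxylases. Of 14 other genes they induce, 2 were called higher and 2 lower in PeriFibro than in Peri cells after bleomycin, and 1 higher and 2 lower in uninjured mice, with median log2 differences of -0.03 and -0.21. The glucose transporter Slc2a1 was 3.40-fold lower in PeriFibro than in Peri cells after bleomycin and 7.00-fold lower in uninjured mice (adjusted p = 0.0044 and 0.0003), and Ankrd37 was 4.19-fold higher after bleomycin (adjusted p = 0.0012). Bleomycin over uninjured arrays called Ankrd37 in PeriFibro cells (5.88-fold, adjusted p = 0.019), and Slc2a1 (4.25-fold, adjusted p = 0.015) and Ankrd37 (3.32-fold, adjusted p = 0.032) in Fibro cells. In Peri cells limma called 0 of 14. The log2 difference of bleomycin over uninjured arrays was positive for 12 of 14 in PeriFibro, 12 in Peri and 13 in Fibro cells. Medians were 0.46, 0.29 and 0.57 in that order, beside -0.03, 0.03 and -0.03 for all genes.

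Of 11 genes induced by TGF-beta, 3 were called higher and 2 lower in PeriFibro than in Peri cells after bleomycin, and 5 higher and 1 lower in uninjured mice. Timp1, an inhibitor of metalloproteinases, was called in all 3 populations for bleomycin over uninjured arrays, 11.5-fold in PeriFibro cells (adjusted p = 0.014), at least 27.2-fold in Peri cells (adjusted p = 0.0014) and by 4.09 log2 units in Fibro cells (adjusted p = 0.0011). Ccn2, a matricellular protein, was called in Peri cells (7.89-fold, adjusted p = 0.039). P4ha2 was the member called beside them in Peri cells. Bleomycin and sex cannot be told apart in these comparisons.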
